A study of Rattus norvegicus with 37 samples.

Results

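The data described here are liver RNA counts from 9 of the 37 rats of the study. They belong to its SCI + Exercise set, and the comparison takes the rats that walked in shallow water after a contusion of the spinal cord (CONT SCI + SWW, here SWW, n = 5) and the rats without injury (No SCI, n = 4). It addresses which transcripts in the liver differed from those of uninjured animals after injury followed by walking. Members were chosen by their labels alone, and no measured value entered the choice.

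All 9 rats were female Sprague Dawley, an outbred strain, bought as young adults and kept in pairs in tiny cages that restrict movement. The SWW rats received a moderately severe contusion at an upper thoracic level of the spinal cord. The No SCI rats had no spinal injury and did no water exercise, so an injured group without exercise (CONT SCI, n = 4) and an injured group that swam (SWIM, n = 5), both also in tiny cages, are given side by side where they bear on a value. By the labels, livers were taken 11.5 weeks after the contusion, and walking began on day 10 and lasted 8 weeks. The study's methods give a later start, a longer course and a later collection for exercised rats. They describe anaesthesia, surgery and drugs after surgery for injured rats, and no sham operation. Injury, surgery with its drugs, walking, handling and any difference in collection time therefore cannot be told apart between SWW and No SCI. Nothing states which rats shared a cage, so 2 libraries of a group may come from cage mates.

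The liver takes up nutrients from the gut, stores and releases glucose, makes and exports lipoproteins and plasma proteins, and clears drugs and hormones. Sympathetic nerves from the thoracic spinal cord reach it, and an injury high in the thoracic cord can interrupt the brain's control over these nerves while the vagus nerve is spared. Shallow water walking is a form of locomotor training in which water carries part of the body weight while the paws still touch the ground. Liver tissue is a mixture of hepatocytes, resident macrophages, endothelial, stellate and bile duct cells, and in such bulk RNA fewer cells of a type and less RNA per cell cannot be told apart.

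Each library held between 30241918 and 36761953 reads counted on genes, and between 14859 and 15706 of the 24613 listed genes had at least 1 count. The 10 genes with the most counts took between 23.5% and 26.4% of a library. The files give Ensembl gene identifiers and do not pair them with gene names, and none of the identifiers matched the RefSeq table at hand. The lists of liver pathways and cell type markers could therefore not be applied, so the label "liver" was not checked against defining genes, and only 4 genes are given by their identifier.

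A single library was more like the other group than its own. Over the 12677 genes tested, the log2 CPM (counts scaled to 1000000 per library) of 8 of the 9 rats were most like those of a rat of their own group. The exception was No SCI replicate 2. Its mean Pearson r was 0.969 with the other No SCI rats and 0.976 with the SWW rats, and the single library it resembled most was SWW replicate 2 (r = 0.982). Within its group its r was 0.977 with replicate 1, 0.971 with replicate 3 and 0.958 with replicate 4. No SCI replicate 4 was the rat least like the other group (mean r = 0.958), so the low own-group mean of replicate 2 involves both rats. For the rats other than No SCI replicate 2 the mean r with the own group lay between 0.973 and 0.982, and the mean r with the other group between 0.958 and 0.972. These values share genes and libraries and are descriptions. The number of calls, the medians over the called genes, the log2 fold changes of the identified genes and the direction shares in a separate contusion comparison are also given without No SCI replicate 2.

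**Figure D1:**
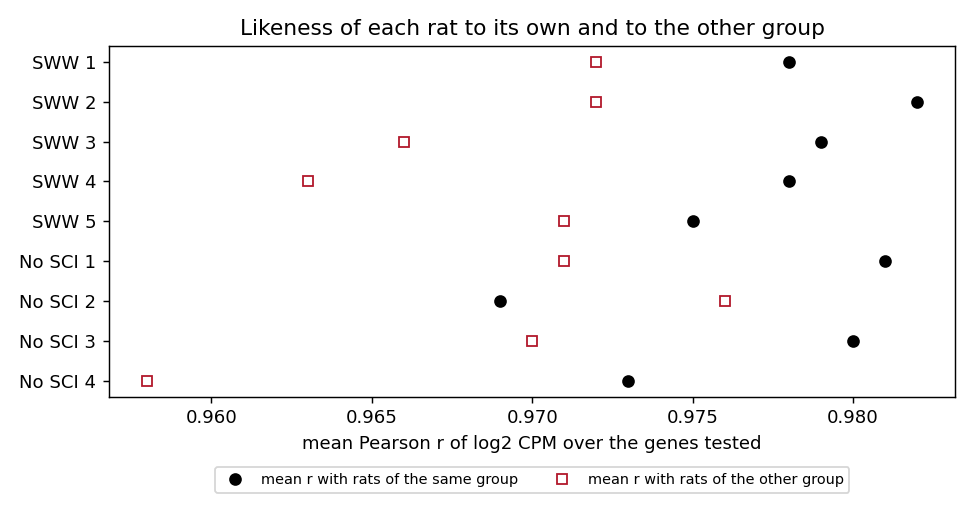
Mean Pearson r of log2 CPM over the 12677 genes tested (horizontal axis, no unit) for each rat, with rats of its own group (filled circles) and with rats of the other group (open squares). The filled circle lies to the right of the open square in 8 of 9 rats, and No SCI replicate 2 has 0.969 with its own group and 0.976 with SWW.

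Between SWW and No SCI, 50 of 12677 genes (0.394%) passed an adjusted p under 0.05 by edgeR's quasi-likelihood test, 28 of them higher (0.221%) and 22 lower (0.174%) in SWW. DESeq2 called 931 genes (6.66%), all 50 among them. At an unadjusted p under 0.05 there were 2658 genes (21%), 1287 higher and 1371 lower. The median size of the log2 fold change over all tested genes was 0.23, and 423 genes differed by a log2 value of at least 1. The called genes were thus a small share of the genes with a low unadjusted p.

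The 28 higher genes had log2 fold changes from 0.51 to 2.82 with a median of 1.15. The 22 lower genes ran from -3.85 to -0.62 with a median of -0.93. A log2 change of at least 1 in size was found for 16 of the 28 higher and 10 of the 22 lower genes. In all 50 genes the CPM values of the groups did not overlap, which was so for 7.22% of all tested genes. The 50 were chosen on these same rats by a test that favours separated groups, so this was largely built in. Of the 50 calls, 27 had an adjusted p of 0.04 or more, close to the threshold of 0.05.

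The called genes ranged from rare to abundant transcripts. Their mean level over the 9 rats had a median of 23.2 CPM, against 11.5 CPM over all tested genes. A mean under 10 CPM was seen for 15 of the 50 (30%) and for 46.8% of the tested genes, and a mean over 100 CPM for 11 of the 50 (22%) and for 9.13% of the tested genes. The higher genes had a median of 33.2 CPM and reached 2860 CPM, whereas the lower genes had a median of 12.5 CPM and reached 354 CPM. CPM is not corrected for transcript length, so these are levels of counts and not of molecules.

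**Figure D2:**
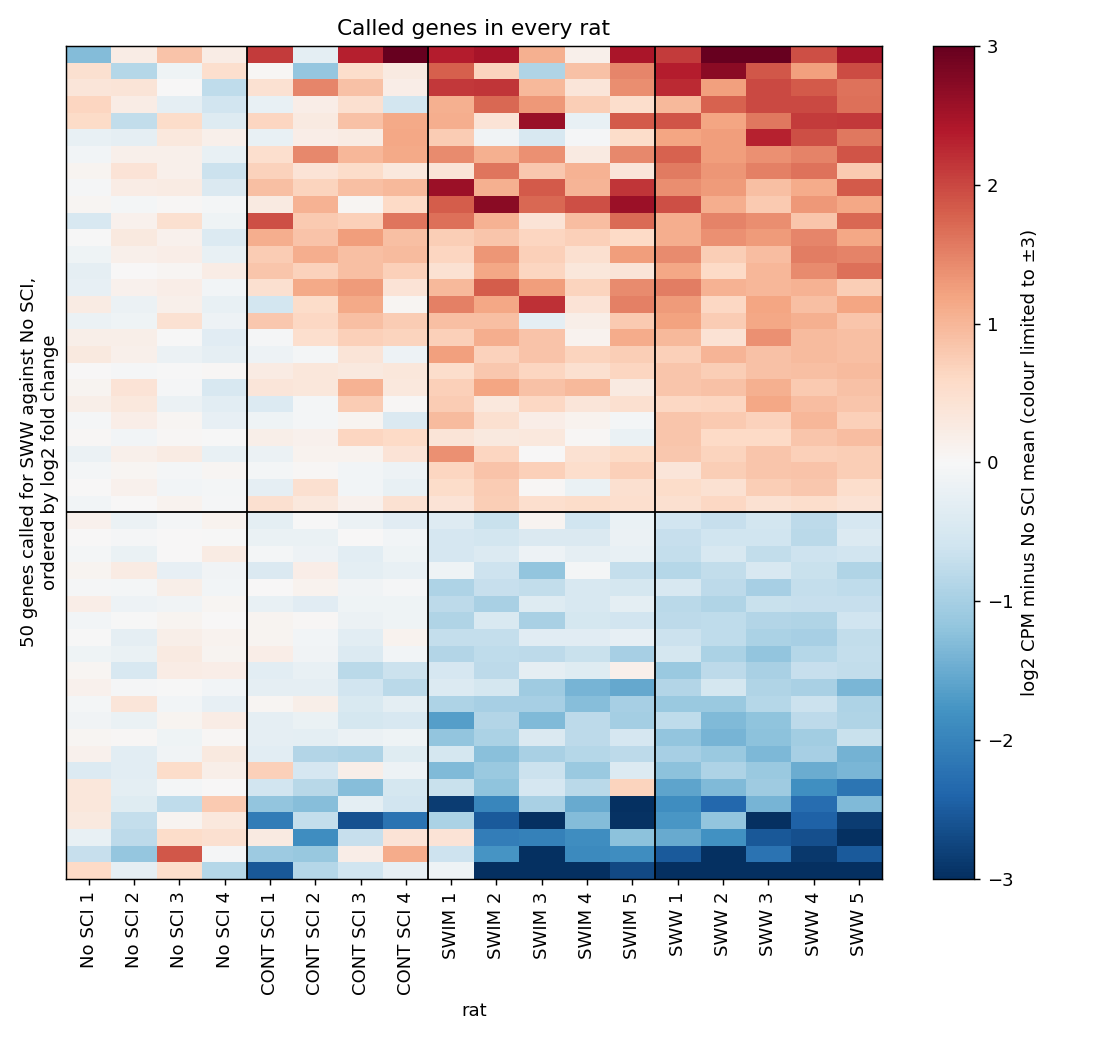
Heat map of the 50 genes called for SWW against No SCI (rows, ordered by log2 fold change, 28 higher above the horizontal line and 22 lower below it) in each rat of 4 groups (columns). Colour is log2 CPM minus the No SCI mean, limited to 3 in either direction. The rows were chosen on the No SCI and SWW columns, so their contrast there is a description, and the CONT SCI and SWIM columns are mostly paler.

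The called genes were also summarised rat by rat. The median log2 difference from the No SCI mean over the 28 higher genes was 1.13, 0.96, 1.11, 1.06 and 1.05 in SWW replicates 1 to 5. Over the 22 lower genes it was -0.93, -0.93, -1.03, -0.93 and -0.90. In the No SCI rats the same medians were 0, 0.14, 0.08 and -0.23 for the higher genes and 0.04, -0.20, 0.05 and 0.06 for the lower genes. The genes were chosen on these rats by a test that favours a wide gap between the groups and a small spread within them, so both are descriptions.

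The injured rats that did not exercise were summarised over the same genes. Their medians were 0.31, 0.37, 0.71 and 0.43 over the higher genes, and -0.27, -0.24, -0.32 and -0.18 over the lower genes, the last within the range of the No SCI rats. In the SWIM rats the medians were 0.92, 0.97, 0.72, 0.46 and 0.72 over the higher genes, and -0.69, -0.91, -0.88, -0.78 and -0.64 over the lower genes. All 9 of these rats are set against the same No SCI libraries that chose the genes, so these are positions and not independent evidence of a shared change.

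Of the 50 genes, 0 were called between CONT SCI and No SCI by edgeR, where 1 of 12482 genes (0.00801%) was called, and 24 of the 50 had an unadjusted p under 0.05 (4.49% over all genes). DESeq2 called 10 of the 50 there, against 0.477% of all genes. The median log2 fold change of CONT SCI against No SCI was 0.47 over the higher genes (range -0.13 to 2.13) and -0.21 over the lower genes (range -1.88 to 0.09). This comparison uses the same No SCI libraries.

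The difference between the injured groups themselves was tested as SWW against CONT SCI, which shares the SWW libraries that helped to choose the genes. There edgeR called 96 of 12642 genes (0.759%), and 18 of the 49 tested members were among them, 8 of the higher genes as higher (0.475% over all genes) and 10 of the lower genes as lower (0.285%). Of the 49, 41 had an unadjusted p under 0.05 (20.8% over all genes), and DESeq2 called 32 (7.05% over all genes). The median log2 difference was 0.64 over the higher genes and -0.71 over the lower genes. That count changes strongly with single rats. It was 0 genes without CONT SCI replicate 4, 2 without SWW replicate 3 and 533 without SWW replicate 5.

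Between the exercised groups, SWW against SWIM, edgeR called 0 of 12525 genes at an adjusted p under 0.05, with 680 genes (5.43%) at an unadjusted p under 0.05 and 14 genes called by DESeq2. Of the 48 members tested, 0 were called by edgeR and 2 by DESeq2 (0.11% over all genes), and 14 had an unadjusted p under 0.05. Their median log2 difference was 0.31 over the higher genes and -0.26 over the lower genes. The SWW libraries chose these genes and the SWIM libraries did not, so nothing is read from the sign of these medians, and the absence of calls does not show that the exercised groups were alike.

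The 2 identifiers with the smallest p in each direction show what the calls look like in single rats. They were chosen for a small p on these same rats, so gaps between SWW and No SCI in them are largely built in. ENSRNOG00000013090 is one of the higher genes. It measured 64, 75.6, 74.7 and 57.6 CPM in the No SCI rats (68 ± 8.69, SD, n = 4) and 231, 162, 176, 189 and 251 CPM in the SWW rats (202 ± 37.7, SD, n = 5). Every SWW rat was above every No SCI rat, and the lowest SWW level was more than double the highest No SCI level. The log2 fold change was 1.58 ± 0.17 (SE), or 2.98-fold, with an adjusted p of 0.00417 by edgeR's quasi-likelihood test.

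In the unexercised CONT SCI rats ENSRNOG00000013090 measured 95.9, 185, 134 and 148 CPM, all above the No SCI rats, and SWIM rats held 180, 141, 176, 81.8 and 184 CPM. The difference between CONT SCI and No SCI was 1.05 ± 0.19 (log2, SE), with an adjusted p of 0.322 by edgeR. Between SWW and CONT SCI it was 0.54 ± 0.19 (adjusted p = 0.137, edgeR), and between SWW and SWIM 0.40 ± 0.21 (adjusted p = 0.782, edgeR). The gene was called for SWW against No SCI in each of the 9 fits that left out 1 rat, with log2 values from 1.48 to 1.65, and without No SCI replicate 2 it stood at 1.63.

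ENSRNOG00000012843 varied little within groups. It measured 199, 191, 195 and 201 CPM in the No SCI rats (197 ± 4.37, SD, n = 4) and 350, 330, 360, 365 and 381 CPM in the SWW rats (357 ± 19, SD, n = 5). No value of one group came near the other. The log2 fold change was 0.86 ± 0.11 (SE), or 1.82-fold, with an adjusted p of 0.0228 by edgeR.

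For ENSRNOG00000012843 the 4 CONT SCI rats lay together at 235, 247, 240 and 248 CPM, and the SWIM rats at 285, 344, 306, 273 and 307 CPM. The groups thus ordered as No SCI, CONT SCI, SWIM and SWW in their means, with SWIM and SWW overlapping in single rats. SWW was higher than CONT SCI by 0.58 ± 0.09 (log2, SE; adjusted p = 0.0268, edgeR). CONT SCI against No SCI (0.30 ± 0.10, adjusted p = 0.847) and SWW against SWIM (0.24 ± 0.10, adjusted p = 0.782) did not pass edgeR's threshold. Its call against No SCI was lost without No SCI replicate 1 or replicate 3, at log2 values of 0.89 and 0.86, and was kept without No SCI replicate 2 at 0.85.

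ENSRNOG00000002773 had the largest fall among the called genes. The No SCI rats held 4.43, 2.40, 4.24 and 1.58 CPM, from 142, 88, 125 and 55 counts (3.16 ± 1.40 CPM, SD, n = 4). The SWW rats held 0.242, 0.234, 0.223, 0.110 and 0.270 CPM, from 8, 8, 7, 4 and 9 counts (0.216 ± 0.0615 CPM, SD, n = 5). The transcript was thus detected in every rat and rare in SWW, and the smallest No SCI value was several times the highest SWW value. The log2 fold change was -3.85 ± 0.38 (SE), or 14.4-fold lower in SWW, with an adjusted p of 0.00336 by edgeR.

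In CONT SCI, ENSRNOG00000002773 measured 0.445, 1.58, 1.89 and 2.44 CPM. In SWIM it measured 2.66 CPM in replicate 1 and 0.0878, 0.154, 0.263 and 0.395 CPM in the other rats, so 4 of the 5 SWIM rats were near the SWW level and 1 was within the No SCI range. SWW was lower than CONT SCI by a log2 value of -2.84 ± 0.45 (SE; adjusted p = 0.0271, edgeR). CONT SCI against No SCI gave -0.99 ± 0.46 with an adjusted p of 0.998, and the gene did not pass the filter on low counts for SWW against SWIM. Leaving out any 1 of the 9 rats kept its call against No SCI, at log2 values from -4.08 to -3.62, with -3.97 without No SCI replicate 2.

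ENSRNOG00000009779 was an abundant lower gene. It measured 552, 406, 468 and 625 CPM in the No SCI rats (513 ± 95.8, SD, n = 4) and 255, 235, 200, 254 and 191 CPM in the SWW rats (227 ± 30.3, SD, n = 5). No SCI replicate 2 was the lowest of its group and still above every SWW rat. The log2 fold change was -1.18 ± 0.16 (SE), or 2.26-fold lower in SWW, with an adjusted p of 0.0228 by edgeR.

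The CONT SCI rats held 406, 277, 265 and 391 CPM of ENSRNOG00000009779 and the SWIM rats 350, 213, 258, 279 and 295 CPM, both between the other groups in their means and overlapping with SWW (SWIM) or touching No SCI (CONT SCI). None of the differences of CONT SCI from No SCI (-0.61 ± 0.19, adjusted p = 0.822), SWW from CONT SCI (-0.54 ± 0.15, adjusted p = 0.0917) or SWW from SWIM (-0.30 ± 0.14, adjusted p = 0.782) passed edgeR's threshold. The call against No SCI was lost without SWW replicate 3, No SCI replicate 1 or No SCI replicate 3, at log2 values of -1.13, -1.12 and -1.22. It was kept at -1.28 without No SCI replicate 2.

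**Figure D3:**
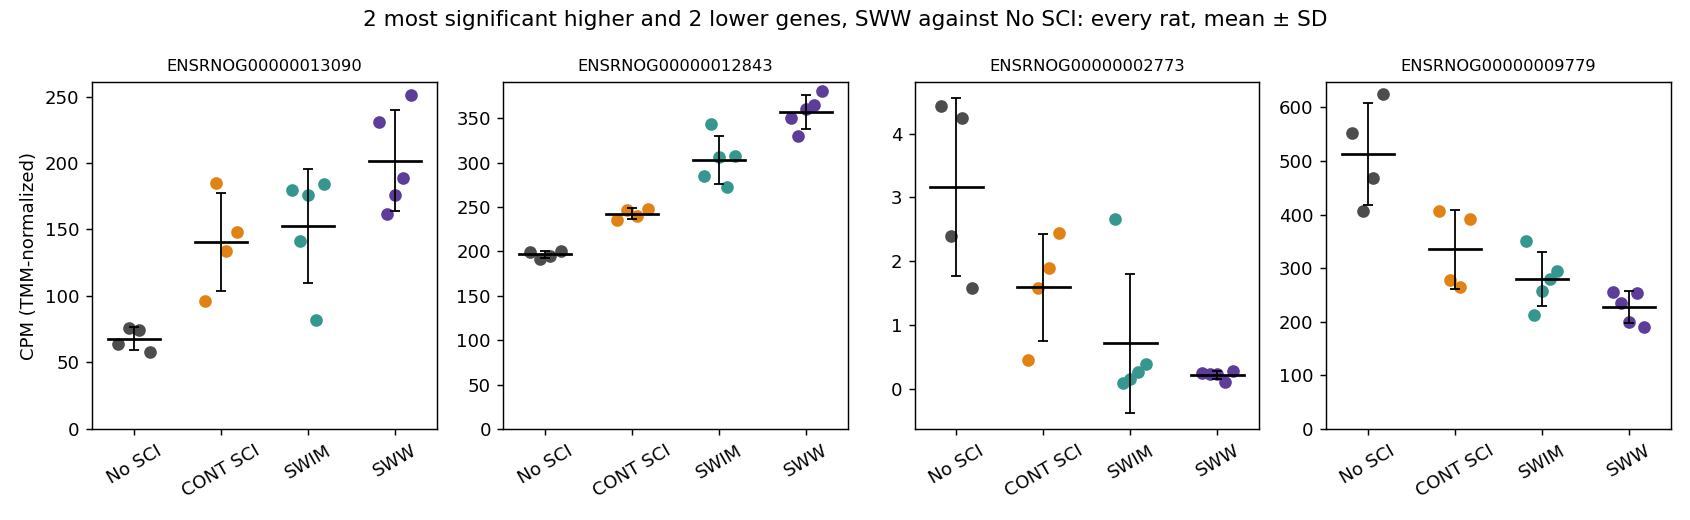
CPM on TMM-normalized libraries (vertical axis, a scale of its own in each panel) of the 2 higher and 2 lower genes with the smallest p for SWW against No SCI. Points are rats, horizontal bars are group means and error bars are SD (n = 4 for No SCI and CONT SCI, n = 5 for SWIM and SWW). The No SCI and SWW points do not overlap in any panel, which the choice by smallest p favours. SWIM replicate 1 stands at 2.66 CPM of ENSRNOG00000002773 above the other SWIM rats.

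How many genes were called depended on which rats were included. With 1 SWW rat left out, edgeR called between 9 genes (without replicate 3) and 37 genes (without replicate 2). Without No SCI replicates 1, 3 or 4 it called 2, 2 and 7 genes. Without No SCI replicate 2 it called 1684 of 12776 genes (13.2%), 854 higher and 830 lower in SWW. Replicate 2 was the No SCI rat most like the SWW rats, so a rise in calls on leaving it out is partly built in. All 50 genes called with 9 rats were among the 1684, and their medians moved little, to 1.17 over the higher and -0.97 over the lower genes.

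Of the 50 genes, 2 kept their call whichever of the 9 rats was left out, ENSRNOG00000013090 and ENSRNOG00000002773. In these fits 14 of the 50 were called at least 5 times and 26 at most 2 times. The medians in the 9 fits lay between 1.04 and 1.21 for the higher genes and between -0.97 and -0.91 for the lower genes. The 50 genes were chosen on these rats, and each fit reuses most of them. Steady medians were therefore largely built in and are a description.

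The 1684 genes without No SCI replicate 2 had smaller median changes than the 50. A log2 fold change of at least 1 in size was reached by 482 of them, 382 higher and 100 lower, and the medians were 0.94 over the higher and -0.62 over the lower genes. The rat left out can be placed on each gene between the mean of the remaining No SCI rats and the SWW mean. No SCI replicate 2 was nearer to the SWW mean for 1321 of the 1684 genes (78.4%), with a median position of 0.82 on a scale where 0 is the No SCI mean and 1 the SWW mean. Only 50 of the 1684 genes were also called with this rat included. The choice thus favours genes on which it lies toward SWW, and its position is partly built in. This description was added after the values had been seen.

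The same placement was made for the injured rats that the fit did not use. The CONT SCI rats were nearer to the SWW mean for 34.4%, 57.7%, 62% and 27% of the 1684 genes, and the SWIM rats for 84.3%, 94.8%, 41.7%, 75.3% and 47.1%. Single rats lay on different sides of the midpoint within CONT SCI and within SWIM. The No SCI replicates 1, 3 and 4 and the SWW rats chose these genes and were not placed. For other rats left out, between 70.3% and 100% of the far smaller numbers of called genes had the left-out rat nearer to its own group. Most of those genes were also called with the left-out rat included, so these shares are not a like comparison.

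**Figure D4:**
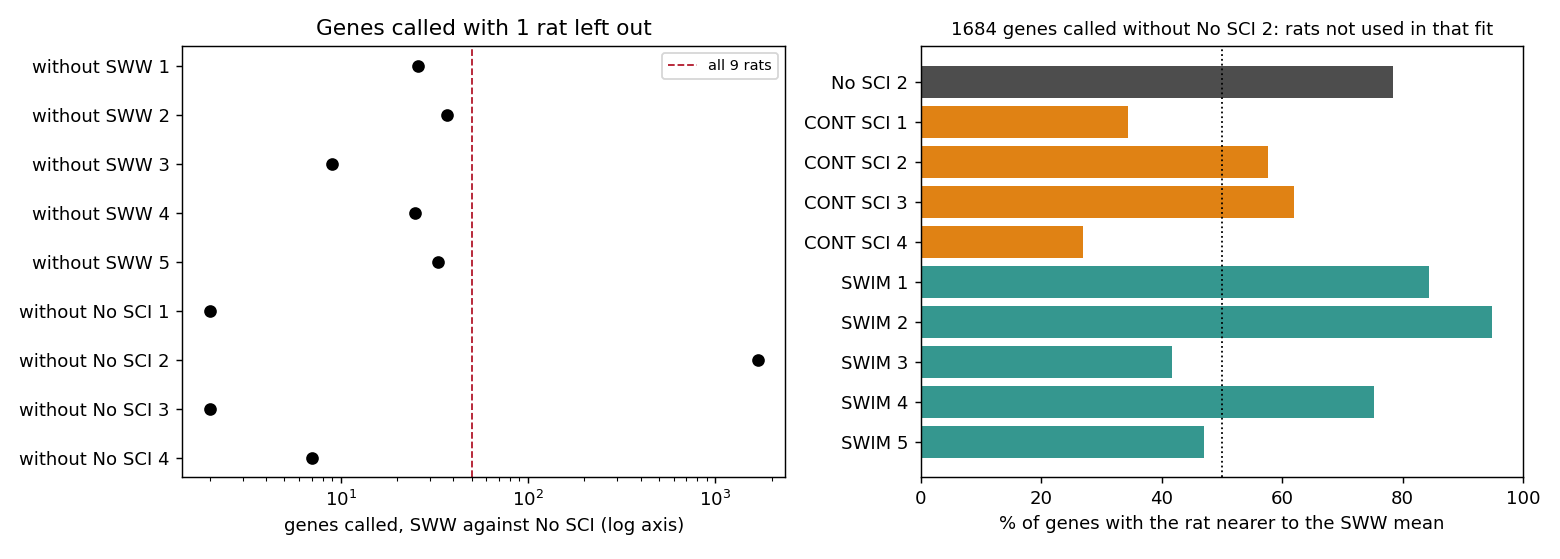
Left, genes called for SWW against No SCI (horizontal log axis) when the rat named on the vertical axis was left out, with the count of 50 from all 9 rats as a dashed line. Right, share in percent of the 1684 genes called without No SCI replicate 2 for which each rat outside that fit lay nearer to the SWW mean than to the mean of the remaining No SCI rats, with 50% dotted. No SCI replicate 2 stands at 78.4%, CONT SCI rats between 27% and 62% and SWIM rats between 41.7% and 94.8%. Choosing the genes without No SCI replicate 2 favours a position of that rat toward SWW.

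A contusion comparison that shares no library with SWW against No SCI exists in the SCI + In-Cage Activity set, where 5 contused rats in tiny cages without exercise (CONT SCI + Tiny) stand against 5 uninjured rats in standard cages (No SCI + Standard). Injury, surgery with its drugs and cage size cannot be told apart there. Of the 50 genes, 47 were tested in that set and 4 were called, 1 higher gene as higher, 1 lower gene as lower and 2 higher genes as lower. The share of 8.51% stands beside 1479 of 11859 genes (12.5%) called in that comparison, 5.43% higher and 7.04% lower. An unadjusted p under 0.05 was found for 11 of the 47, beside 34.3% of all genes, and DESeq2 called 8 of them, beside 22% of all genes.

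In direction too, the called genes were near an even split. They moved the same way in that set for 22 of 47 genes (46.8%), 13 of 28 higher and 9 of 19 lower genes, beside 4767 of all 11809 genes tested in both (40.4%). Their median log2 fold change there was -0.01 over the higher genes and 0.03 over the lower genes. ENSRNOG00000013090 and ENSRNOG00000012843 had values of 0.62 ± 0.31 and 0.60 ± 0.28 (log2, SE), ENSRNOG00000002773 had -0.27 ± 0.63, and ENSRNOG00000009779 had 0.65 ± 0.24, opposite to its fall in SWW. By edgeR's quasi-likelihood test the adjusted p values of these genes in that set lay between 0.0746 and 0.79, so none was called. ENSRNOG00000009779 had an unadjusted p of 0.016 by edgeR, and the others were above 0.05.

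Across all 11809 genes, the log2 fold changes of both comparisons had a Pearson r of -0.242 and a Spearman rho of -0.274, described across genes, which are not independent replicates. The r ranged from -0.334 without No SCI replicate 2 to -0.094 without No SCI replicate 4. Of the 1684 genes called without No SCI replicate 2, 1613 were tested in the In-Cage set and 357 (22.1%) moved the same way there, beside 37% over all genes in that fit. In the In-Cage set 301 of these 1613 genes (18.7%) were called, beside 12.5% over all genes. Of its 184 calls among genes higher in SWW, 176 were lower in the In-Cage contused rats. Of its 117 calls among genes lower in SWW, 99 were higher. No such share over all In-Cage calls stands beside these counts, and the fit without No SCI replicate 2 had the most negative r. Opposite directions were thus already common over all its genes, and nothing particular to the called genes is read from these counts. Both lists depend on single rats, and the In-Cage calls ranged from 15 to 2998 with 1 rat left out. The controls of the sets also differ in cage size, only the SWW rats walked, and the In-Cage libraries held fewer counts. The part of any of these in the opposite directions was not tested.

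**Figure D5:**
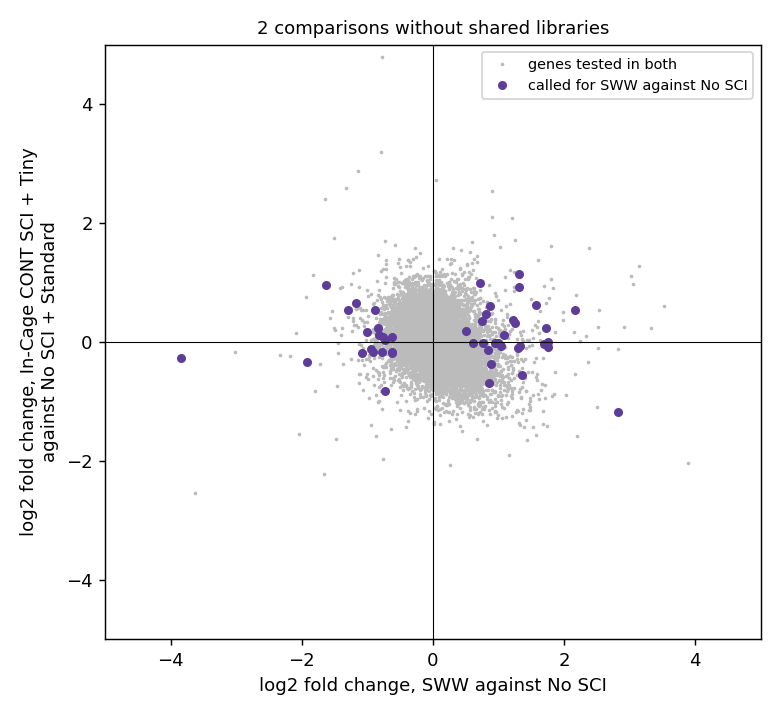
Log2 fold change of SWW against No SCI (horizontal axis) and of CONT SCI + Tiny against No SCI + Standard in the In-Cage set (vertical axis) for 11809 genes tested in both (grey), with the genes called for SWW in purple. The grey cloud leans from upper left to lower right (Pearson r = -0.242), and 22 of the 47 purple genes lie in the quadrants of equal sign.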

How the data were processed

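Liver poly(A) RNA of 37 rats was sequenced as single-end reads. The authors aligned them to the rat genome (rn6) with STAR, used HTSeq to count them on Ensembl genes, mitochondrial genes excepted. FastQC 0.10.1 is named in the submitters' processing notes. The deposited values are raw counts per gene, without normalization. Groups came from the sample labels.

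From these counts, groups were compared with edgeR 4.0.16 in R 4.3.3 (quasi-likelihood, TMM, filterByExpr with minimum count 10 and minimum total 15), each comparison on its own samples, with Benjamini-Hochberg adjustment over all genes tested. An adjusted p under 0.05 was a call. The standard error is the log2 fold change divided by the square root of F. Levels are CPM (counts scaled to 1000000 per library) on TMM-normalized libraries of the Exercise set, and log2 CPM used a prior count of 2. DESeq2 1.42.0, RLE normalization, no filter, all groups in one fit, a replicate block and each rat left out were alternatives. Scripts were tested on simulated data. P-values set the difference between groups against the spread between rats. They take the rats as independent, though some may be cage mates. Depth limits the rare transcripts.

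Identifiers were named as the 2 with the smallest p in each direction. The comparison, lists and rules were chosen with earlier results of these data known. Of 441 listed gene symbols none could be matched, since 0 identifiers matched the RefSeq table of 47357 genes.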

Additional observations from a re-analysis of the deposited data

Results flagged for a closer look

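ENSRNOG00000002773 stood at 2.66 CPM in SWIM replicate 1, far above the other 4 rats of its group. Chance alone can also mark groups in this way. How often it does so was not measured for counts as low as the 3 to 12 of those 4 rats. The cause of the high value was not tested.

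With all rats included, the test between the injured groups called a pair of the identified genes for SWW against CONT SCI. That comparison called 0 genes without CONT SCI replicate 4, so both calls depend on that rat. The SWW libraries also helped to choose these genes. SWW was higher by a log2 value of 0.58 for ENSRNOG00000012843 and lower by -2.84 for ENSRNOG00000002773, in 5 of 5 SWW rats against every CONT SCI rat, with adjusted p values of 0.0268 and 0.0271 by edgeR.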

How the results depend on the processing

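For SWW against No SCI, 50 genes became 931 with DESeq2 (all 50 among them), 272 with all groups in one fit (43 shared) and 2 to 1684 with 1 rat left out. RLE normalization gave 49 and no filter 71. The replicate numbers showed no clear pairing of the rats (same-number correlations 0.015, 0.171, 0.029 and -0.379, own number the best match for 1 of 4). So few pairs cannot settle whether the numbers pair the rats. With the replicate block 12 genes were called, 5 of them among the 50. No SCI has no replicate 5, so with the block SWW replicate 5 adds nothing to the group difference. The block also leaves fewer degrees of freedom, so lost power and any pairing cannot be told apart there. The block ended the calls of ENSRNOG00000012843 and ENSRNOG00000009779.

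For CONT SCI against No SCI, 1 gene became 63 with DESeq2, 3 without a filter, 0 with all groups in one fit, 13 with the replicate block and 1 to 9 with 1 rat left out. For SWW against CONT SCI, 96 became 910 with DESeq2, 20 with all groups and 0 to 533 with 1 rat left out. For SWW against SWIM, 0 became 14 with DESeq2 and 0 to 1 with 1 rat left out. For the In-Cage comparison, 1479 became 2531 with DESeq2, 899 with all groups and 15 to 2998 with 1 rat left out, the lowest without No SCI + Standard replicate 4 and the highest without its replicate 1.

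The medians of the 28 higher and 22 lower genes kept their direction in all 14 alternatives. These genes were chosen on the same rats and the groups did not overlap in them, so a kept direction was built in. The share of called genes moving the same way in the In-Cage set ranged from 22.1% without No SCI replicate 2 to 100% (2 of 2 genes) without No SCI replicate 1 or 3. Causes of these shifts were not tested. ENSRNOG00000002773, with 4 to 9 counts per SWW rat, is limited by depth.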
